A study of Populus tremula x Populus alba with 2 samples.

Results

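The 3 genes described here are the wood sucrose synthases SUS1, SUS2 and SUS3 of poplar, taken by their gene identifiers from a table of 41336 rows, 41335 of them poplar genes. SUS1 is Potri.018G063500, SUS2 is Potri.006G136700 and SUS3 is Potri.002G202300. The table pairs its identifiers with no gene names, so the names SUS1 to SUS3 come from outside the table. RNA was taken from young stems of hybrid aspen (P. tremula x P. alba), from internodes 1 to 15 of plants of about 2 months with the bark removed. The tested material was the transgenic line MOMT4-0, which carries an engineered monolignol 4-O-methyltransferase under the promoter of the bean gene PAL2, a promoter active at the onset of xylem differentiation. It was set against wild-type (WT) controls grown in the same greenhouse, called the control here. About 100 mg of stem was pooled from 2 to 3 plants of each, and each pool gave 1 sequencing library, so 1 transgenic line was sampled without replicates, and the differences below are descriptions of 2 libraries with no test. The study asked whether MOMT4 altered the transcripts of cell wall genes, and the sucrose synthases are among the enzymes that can supply carbon to the wall.

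Sucrose synthase cleaves sucrose, the sugar carried to the stem in the phloem, into fructose and UDP-glucose. UDP-glucose is the substrate of cellulose synthase, and it is also the source of the nucleotide sugars from which xylan and other wall polysaccharides are made. The enzyme is typical of tissues that import sugar, among them developing wood, where it competes for sucrose with invertases, which release glucose and fructose. The reaction can run in both directions in the cell, and a transcript level says nothing of the activity of the enzyme.

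The only row that is no poplar gene, an extra sequence of 1122 bases, is taken as the MOMT4 transgene. It had 1221.8 RPKM (reads aligned to a gene, normalized for its exon length and for sequencing depth) in MOMT4-0 and 4.79 RPKM in the control, in accord with the column headings, which were followed here because GEO's short codes for the libraries run the other way round. RPKM values are per length, so levels of different genes can be set side by side. The values behaved as if scaled to totals of about 9460000 reads for MOMT4-0 and 8750000 for the control, which were read from the spacing of low values. Whether they equal the mapped reads of each library was not tested. Markers of xylem, phloem and leaf were not analysed here, because the rows carry no annotation, so the labelled tissue was not checked against them.

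SUS2 was among the most abundant transcripts of both stems. Its level was 1232 RPKM in MOMT4-0 and 1268 RPKM in the control, which placed it at rank 10 of all rows in MOMT4-0 and at rank 12 in the control. Both libraries therefore held this transcript at a nearly equal level. It stood 112-fold above the median poplar gene in MOMT4-0 and 113-fold above it in the control, among the 22944 poplar genes whose mean over the libraries reached 1 RPKM. The 9 rows above SUS2 in MOMT4-0 were also above it in the control, where 11 rows in all were higher. SUS2 gave 0.186% of the summed RPKM of the MOMT4-0 library and 0.189% of that of the control. The transgene came next after SUS2 in MOMT4-0, at rank 11, and the level of SUS2 was 1.01 times that of the transgene. On its own chromosome, among 2814 rows, SUS2 had the highest level in MOMT4-0 and the second highest, rank 2, in the control.

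SUS1 was abundant, but well below SUS2. Its level was 295 RPKM in MOMT4-0 and 244.6 RPKM in the control, at rank 246 of all rows in MOMT4-0 and rank 331 in the control. Fewer than 1% of the rows were higher in either library, 0.593% in MOMT4-0 and 0.798% in the control. It stood 26.7-fold above the median poplar gene in MOMT4-0 and 21.9-fold above it in the control. Among the 1526 rows of its chromosome it held rank 8 in both libraries.

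SUS3 was a transcript of moderate level in these stems. It had 32.9 RPKM in MOMT4-0 and 29.3 RPKM in the control, at rank 4452 in MOMT4-0 and rank 5069 in the control. In MOMT4-0 10.8% of the rows were higher, and in the control 12.3%. Its level was 2.98 times the median poplar gene in MOMT4-0 and 2.62 times the median in the control. On its chromosome, which has 2640 rows, it held rank 333 in MOMT4-0 and rank 375 in the control.

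**Figure D1:**
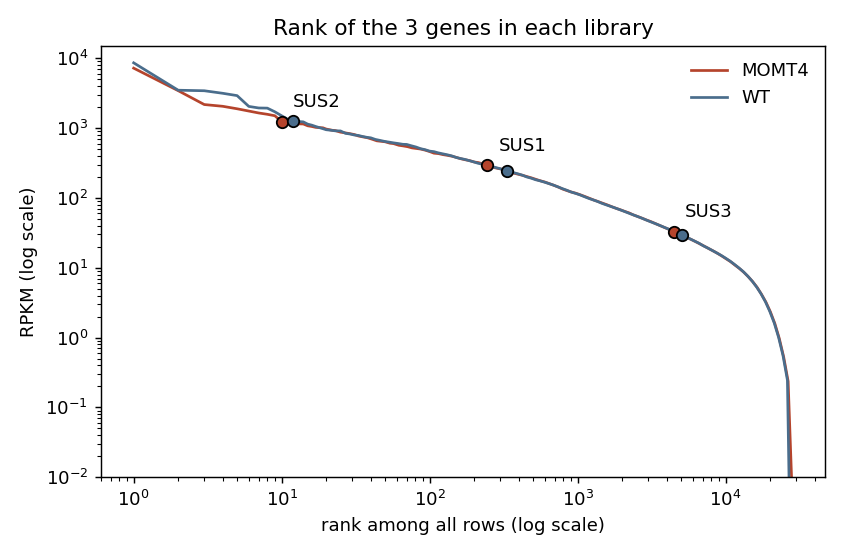
RPKM (log scale) of the rows above 0 against their rank (log scale) in MOMT4-0 and in the control, labelled MOMT4 and WT, with the 3 sucrose synthase genes as points. SUS2 lies at rank 10 in MOMT4-0 and 12 in the control, SUS1 at 246 in MOMT4-0 and 331 in the control, and SUS3 at 4452 in MOMT4-0 and 5069 in the control.

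The order of the copies was the same in both stems, with SUS2 highest and SUS3 lowest. SUS2 made up 79.0% of the summed RPKM of the 3 genes in MOMT4-0 and 82.2% in the control. SUS1 made up 18.9% in MOMT4-0 and 15.9% in the control, and SUS3 made up 2.11% in MOMT4-0 and 1.90% in the control. The share of SUS1 was thus 3.04 percentage points higher in MOMT4-0, and that of SUS2 differed by -3.25 points. Summed over the 3 genes, the level was 1560 RPKM in MOMT4-0 and 1541 RPKM in the control, a difference of 1.21%. The summed sucrose synthase transcripts took 0.236% of all RPKM in MOMT4-0 and 0.230% in the control.

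**Figure D2:**
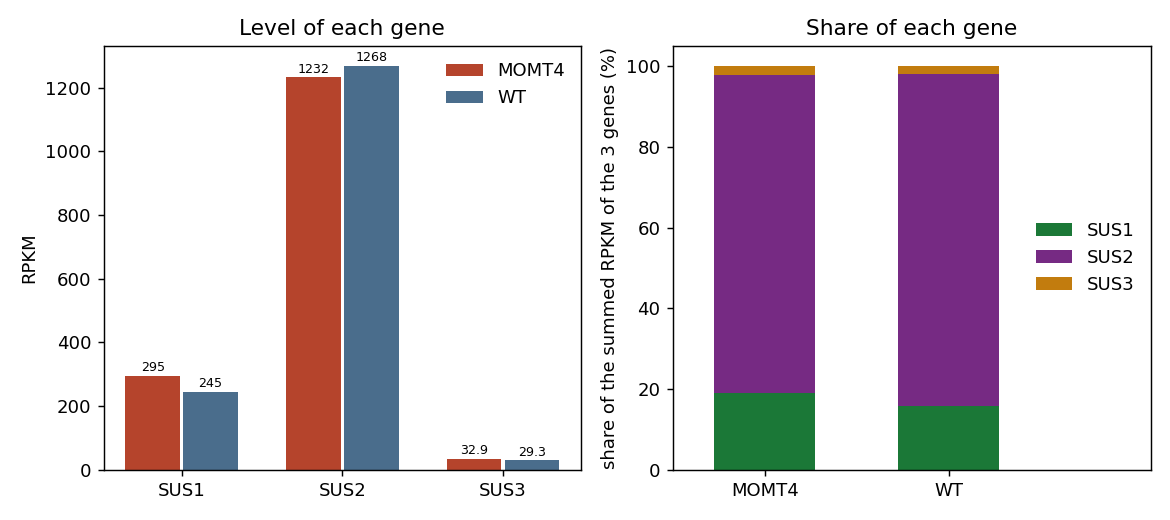
Left, RPKM of SUS1, SUS2 and SUS3 in MOMT4-0 and in the control (labelled MOMT4 and WT, 1 library each, so no error bars). Right, the share of each gene in the summed RPKM of the 3; SUS2 holds 79.0% in MOMT4-0 and 82.2% in the control, and SUS1 holds 18.9% in MOMT4-0 and 15.9% in the control.

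Differences are expressed as the log2 ratio of MOMT4-0 over control, with 1 RPKM added to each value, which understates changes of low genes. A gene was counted as apart where it differed at least 2-fold on this scale, which is a rule of size and not a test. None of the 3 sucrose synthases was 2-fold apart, against 1.77% of the 22944 poplar genes (405 genes), and none was 1.5-fold apart, against 7.07% (1621 genes). With 3 genes, a count of 0 is near what these background shares give. The median log2 ratio over all these genes was -0.0057, and the central 95% of them lay between -0.63 and 0.71.

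SUS1 was the member with the largest difference, a log2 ratio of 0.27. Its level in MOMT4-0 was 1.21 times that in the control. The scaling totals turn these levels into about 2792 reads per kilobase of counted length in MOMT4-0 and 2141 in the control. For 1 kilobase of such reads the 95% interval of the ratio is 1.14 to 1.28 (exact Clopper-Pearson for the MOMT4-0 share of the reads), which leaves out equal levels. This interval covers counting error only, and a longer counted length would narrow it. With 1 library per group, it says nothing of the spread between plants or pools, which was not measured. On the log2 scale the interval of SUS1 is 0.19 to 0.35. The middle 50% of 715 poplar genes of like level, described below, had log2 ratios between -0.12 and 0.10. How many of these genes would also leave out equal levels was not counted.

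SUS2 differed by a log2 ratio of -0.04, or 0.972 times the control level. About 11661 reads per kilobase in MOMT4-0 and 11096 in the control give a 95% interval of 0.947 to 0.998, just short of equal levels. With the libraries rescaled to equal sums the log2 ratio of SUS2 was -0.02, a shift larger than the distance of that interval from equal levels. SUS3 had a log2 ratio of 0.16, with a level in MOMT4-0 of 1.12 times that in the control. Its 312 reads per kilobase in MOMT4-0 and 257 in the control give an interval of 0.949 to 1.33. At the depth of 1 kilobase this interval holds equal levels for SUS3. The counted length of SUS3 is not known here, and a longer one would narrow this interval too. SUS1 and SUS3 lay on the side higher in MOMT4-0, and SUS2 on the side lower.

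Genes of like level show how far the 2 libraries lie apart for transcripts measured with a similar number of reads per length. For each member these were the poplar genes whose mean RPKM was within 2-fold of its own. SUS1 had 715 such genes, with log2 ratios whose central 95% ran between -0.46 and 0.39, and 48 of them, or 6.71%, had a ratio as high as that of SUS1 or higher. In either direction, 98 of them, or 13.7%, lay as far from 0. SUS1 was thus in the upper part of its level class but inside its central range.

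SUS2 lay in the middle of its class. Only 47 genes had a mean within 2-fold of SUS2, and their central 95% ran between -0.92 and 0.42. Of these 47 genes, 38, or 80.9%, lay as far from 0 as SUS2 or farther, and 4 were at least 1.5-fold apart. Most of the abundant transcripts therefore differed more between the libraries than SUS2 did.

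SUS3 had 6901 genes of like level, with a central 95% between -0.45 and 0.52. A ratio as high or higher was found in 1410 of them, or 20.4%, and 2954, or 42.8%, lay as far from 0. Its difference was an ordinary one at this level. These shares describe 1 pair of libraries and are not p-values.

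**Figure D3:**
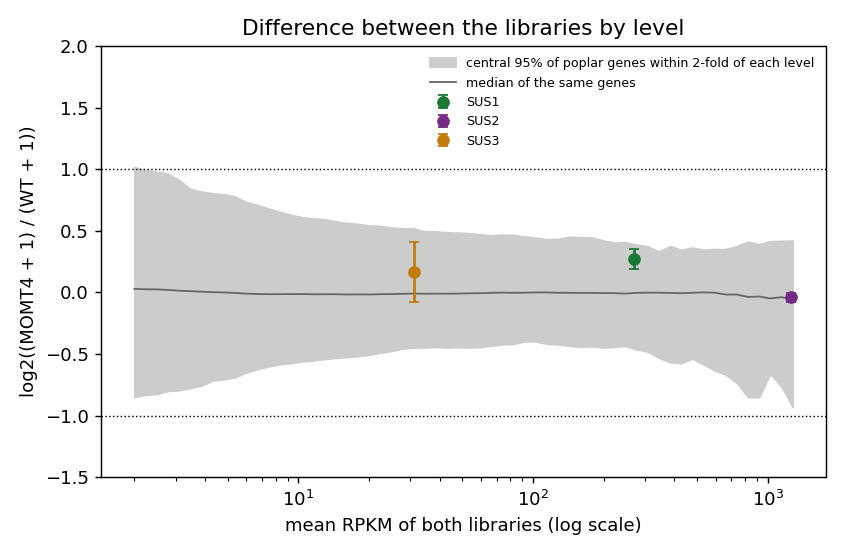
Log2 ratio of MOMT4-0 over control (pseudocount of 1 RPKM) against mean RPKM (log scale), with the central 95% (grey band) and the median of the poplar genes within 2-fold of each level, and the 3 sucrose synthases as points with 95% counting intervals for 1 kilobase of reads, computed without the pseudocount. Dotted lines mark 2-fold; SUS1 (0.27), SUS2 (-0.04) and SUS3 (0.16) all lie inside the grey band.

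**Figure D4:**
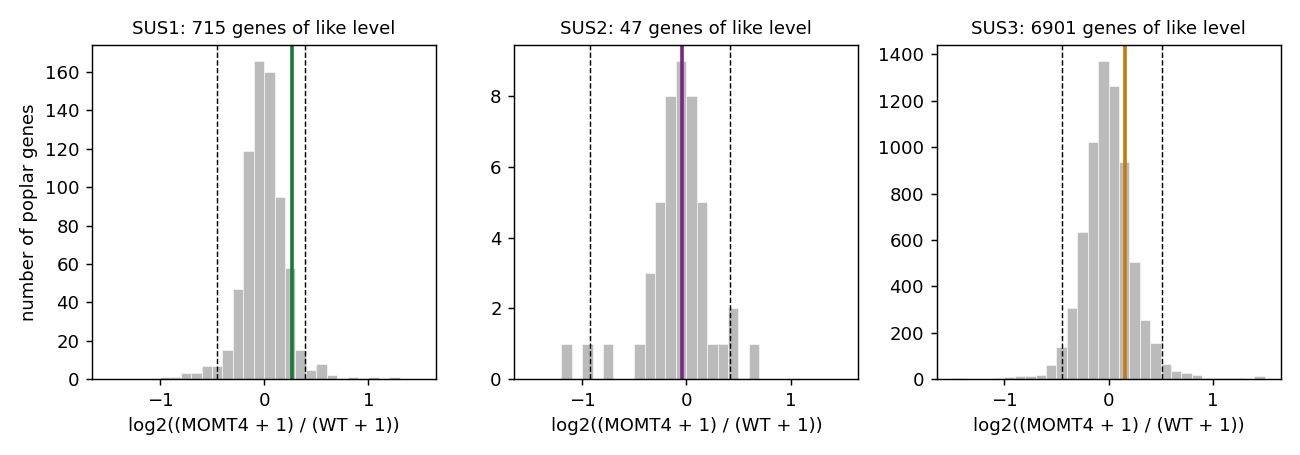
Log2 ratios of the genes of like level (mean RPKM within 2-fold) of SUS1, SUS2 and SUS3, as the number of genes per bin of the ratio; values past the ends are drawn in the end bins. The coloured line is the member and the dashed lines enclose the central 95%; 48 of 715 genes lie at or above SUS1, 23 of 47 at or above SUS2 and 1410 of 6901 at or above SUS3.

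Between the libraries, the ratio of SUS2 to SUS1 differed more than the sum of the 3 genes, which is mostly SUS2. SUS2 was 4.18 times SUS1 in MOMT4-0 (95% counting interval 4.01 to 4.35) and 5.18 times SUS1 in the control (4.95 to 5.43), and these intervals do not overlap. SUS2 was 37.4 times SUS3 in MOMT4-0 (33.4 to 42.0) and 43.2 times SUS3 in the control (38.1 to 49.1). SUS1 was 8.96 times SUS3 in MOMT4-0 (7.96 to 10.1) and 8.35 times SUS3 in the control (7.32 to 9.52). The last 2 pairs of intervals overlap. The intervals are for 1 kilobase of reads and carry no error between plants. The log2 ratios of SUS1 and SUS2 lay 0.31 apart. Log2 ratios had a standard deviation of 0.21 among the genes of like level of SUS1 and 0.32 among those of SUS2. The gap of 0.31 was thus no larger than the spread of single genes in the SUS2 class. Intervals that do not overlap therefore do not mark this pair as unusual. How many other pairs of genes of these levels lay as far apart was not counted. How reads that fit both SUS1 and SUS2 would have been divided was not tested. Reads of hybrid aspen that differ from the P. trichocarpa reference at more than 1 base would not have been aligned.

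The rank of SUS1 in MOMT4-0 was set beside those of the other rows within 10% of its rank in the control, a window chosen after the data were seen. Rank 246 or better in MOMT4-0 was reached by 4 of the 66 other rows that held ranks 298 to 364 in the control, and the median rank of the 66 rows in MOMT4-0 was 340.5. For SUS3, rank 4452 or better in MOMT4-0 was reached by 176 of the 1014 other rows that held ranks 4562 to 5576 in the control. The rows beside SUS2 in the control were at rank 43 in MOMT4-0, against 11 in the control, and at rank 14 in MOMT4-0, against 13 in the control.

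In the table's coordinates SUS1 lies on chromosome 18 from 7953559 to 7959603, SUS2 on chromosome 6 from 11283727 to 11290774 and SUS3 on chromosome 2 from 16415744 to 16422183. The genome build is not given in the sources used here. The spans are 6045, 7048 and 6440 bases in that order, exons and introns together, and no other row overlaps any of them. Each neighbouring row had a lower level than the member beside it in both libraries. Next to SUS2, Potri.006G136600 had 3.51 RPKM in MOMT4-0 and 3.28 RPKM in the control, and Potri.006G136800, which begins after a gap of 550 bases and shares its position with another row, was listed at 0 in MOMT4-0 and at 0.633 RPKM in the control. Next to SUS1, Potri.018G063400 was listed at 0 in both libraries, and Potri.018G063600 had 39.3 RPKM in MOMT4-0 and 49.8 RPKM in the control, a log2 ratio of -0.33, on the other side of 0 from SUS1. Next to SUS3, Potri.002G202200 was listed at 0 in both libraries and Potri.002G202400 had 0.228 RPKM in MOMT4-0 and 0.164 RPKM in the control.

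The poplar genes most like each member over the 2 libraries were found by the distance between their log2(RPKM + 1) values. With only 2 libraries this likeness means a like level in each. Potri.004G047100 was nearest to SUS1 (distance 0.015), with 293 RPKM in MOMT4-0 and 242 RPKM in the control, and Potri.010G144100 followed at 0.075. Potri.001G320500 was nearest to SUS2 (distance 0.11), with 1145 RPKM in MOMT4-0 and 1239 RPKM in the control, followed by Potri.006G130900 at 0.18. Potri.001G469800 was nearest to SUS3 (distance 0.0050), with 32.9 RPKM in MOMT4-0 and 29.2 RPKM in the control, followed by Potri.010G134600 at 0.0084. Fewer genes lay near SUS2 in level, 47 within 2-fold, against 6901 for SUS3.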

How the data were processed

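Strand-specific libraries were sequenced by the authors and aligned to a P. trichocarpa genome (PlantGDB) by TopHat with 1 mismatch allowed. Reads per gene were normalized by the authors to RPKM, the unit of both deposited columns used here. Versions and the genome build are not given in the sources used here. The columns of the authors' Cuffdiff comparison (log2 ratio, test statistic, p and q values) were not used. Starts had 1 added.

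Poplar genes were kept where their mean reached 1 RPKM, without the 2 rows that Cuffdiff marked as failed. Scaling totals were read from rows of at least 600 bases. Of these, 854 shared the most frequent ratio between the libraries other than 1, and were taken to have as many reads in both. Among rows at or very near that ratio, 55 shared 1 value when 214.5 bases were taken off the span. This value was taken as that of 1 read on 1 exon. The steps were tested on simulated data with counting error only, where 200 of 200 genes changed 4-fold were recovered among 22984 genes. Changes of 4-fold lie well past the 2-fold limit, and differences as small as those of the sucrose synthases were not simulated.

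The members and lists were chosen with earlier results of these data known. Named genes were the members, the transgene row, the 2 genes nearest to each member in level and the rows beside it. Alternatives were other pseudocounts, filters, scalings, fold limits and classes of like level. Lists of other sucrose, UDP-glucose and cellulose genes rested on annotation text, and were not analysed here. Computations used NumPy 2.4.6 and SciPy 1.17.1 under Python 3.11.15, with tables in pandas 2.3.3 and plots in matplotlib 3.10.9.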

Additional observations from a re-analysis of the deposited data

How the results depend on the processing

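The log2 ratios of SUS1, SUS2 and SUS3 kept their sign, and moved by less than their counting intervals, with a pseudocount of 0.1, with no pseudocount, centred on the median, rescaled to equal sums and scaled to the upper quartile. These settings left little room for change: the largest shift of the median over all genes was 0.016, with the libraries rescaled to equal sums. SUS2 came closest to 0, at -0.02, under that same rescaling. Among rows above 0 in both libraries, SUS3 ranked 4450 in MOMT4-0 and 5068 in the control, while SUS1 and SUS2 kept their ranks. With the 200 genes nearest in rank as the class of like level, 22.0% lay at or above SUS3, in place of 20.4%. Poplar genes 2-fold apart numbered 405 in the report. They numbered 861 with a pseudocount of 0.1, 142 with a mean of at least 5 RPKM and 1621 with a limit of 1.5-fold, and none of the 3 sucrose synthases was among them under any of these settings. Shares against all annotated sucrose synthases and the alternatives for the pathway lists were not run, since the lists rested on annotation text. No paired analysis was possible because only 1 library was made for each line. Pools and lines cannot be told apart, since each line was sampled as 1 pool.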
